A study of Homo sapiens with 4 samples.

Results

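The 8 genes IDH1, IDH2, IDH3A, IDH3B, IDH3G, D2HGDH, OGDH and GLUD1 make or use 2-oxoglutarate and its reduced product 2-hydroxyglutarate. They were taken by name from a table of 60675 gene rows, and each name matched 1 row. RNA came from HT1080, a human fibrosarcoma cell line, with a KDAC8 knockout. KDAC8, encoded by HDAC8, removes acetyl groups from lysines. All 4 libraries carry this genotype and form 1 group (replicates 1 to 4), the labels name no agent or time point, and no parental library was analysed here. The labels do not say whether the knockout is a single clone or whether the replicates were separate cultures, so the tests below measure only the spread between these libraries, which may be technical. The effect of the knockout on these genes cannot be read from 1 group, and the values are levels, ratios within a library and differences between libraries.

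Isocitrate dehydrogenases oxidise isocitrate to 2-oxoglutarate. IDH1 in the cytosol and peroxisomes and IDH2 in mitochondria use NADP, whereas IDH3A, IDH3B and IDH3G encode the subunits of the NAD-dependent mitochondrial enzyme of the tricarboxylic acid (TCA) cycle. HT1080 is known to carry an IDH1 mutation, and mutant enzymes of this class reduce 2-oxoglutarate to D-2-hydroxyglutarate, which can inhibit 2-oxoglutarate-dependent dioxygenases. D2HGDH oxidises D-2-hydroxyglutarate back to 2-oxoglutarate. OGDH is the first component of the complex that carries 2-oxoglutarate on to succinyl-CoA, and GLUD1 interconverts glutamate and 2-oxoglutarate in mitochondria.

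IDH1 has an active-site arginine that is its known mutational hot spot. The reference coding sequence around that codon is shown because the measurement here is a count per gene, which does not separate alleles. The window comes from a GENCODE release 29 transcript (GRCh38), runs 5′ to 3′ on the coding strand with 30 bases on each side, and has the arginine codon in capitals. It is codon 132 of IDH1 (chr2:208248387-208248389, exon 4 of 10, reverse strand).
IDH1: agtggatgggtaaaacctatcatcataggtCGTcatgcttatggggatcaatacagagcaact
The longest run of bases shared by the IDH1 and IDH2 transcripts was 17. No window of 150 bases, the read length in the labels' protocol, in either transcript occurred in a transcript of another gene. Counts of IDH1 and IDH2 are therefore separable by sequence, while a mutant and a normal IDH1 transcript both fall in the IDH1 count.

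Total counts were 39454210 to 45828807 per library. HDAC8, the targeted gene, had 80, 89, 95 and 107 counts (2.18 ± 0.24 CPM, SD, n = 4), and counts over a whole gene do not show whether the edited exon was read. CPM is the expected count scaled to an effective library size of 1000000. Of 9 mesenchymal markers 5 reached 1 CPM in all libraries, with a summed level of 6717 to 7039 CPM over the 9, while COL1A2, COL3A1, THY1 and S100A4 did not. Of 10 markers of epithelial, blood, endothelial, muscle and neuronal cells 0 did, their summed level was 0.0709 to 0.347 CPM, and EPCAM, CDH1, KRT5 and MYOG were at 0 counts in every library. Fewer cells that express a gene and less RNA per cell cannot be told apart in such bulk libraries.

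All 8 genes were expressed in all 4 libraries, over a wide range of levels. GLUD1 was the highest and IDH2 and D2HGDH were the lowest. To compare genes, CPM was divided by the kilobases of all annotated exons of a gene. On this scale the mean level was 61.6 for GLUD1, 23.5 for IDH3B, 13.7 for OGDH, 11.2 for IDH3G, 10.4 for IDH1, 7.66 for IDH3A, 3.30 for IDH2 and 2.10 for D2HGDH. Their median was 10.8 CPM per kilobase, against 6.32 over 11569 detected protein-coding genes (at least 1 CPM in each library). GLUD1 exceeded 95.7% of those genes per kilobase, IDH1 66.5%, IDH2 31.4% and D2HGDH 21.3%.

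**Figure D1:**
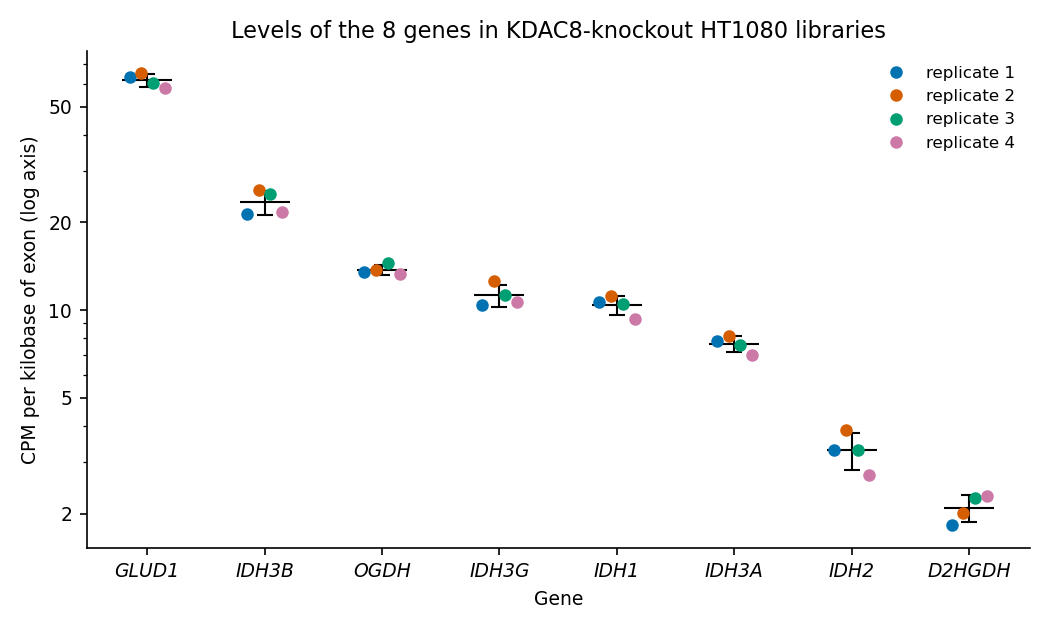
Level of each gene in CPM per kilobase of annotated exon (log axis), with a point per library and the mean ± SD over 4 libraries. GLUD1 lies above all other genes at 61.6, IDH3G and IDH1 overlap at 11.2 and 10.4, and IDH2 and D2HGDH lie lowest at 3.30 and 2.10.

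Of the 28 pairs of genes, 27 kept the same order in all 4 libraries on this scale. The exception was IDH3G against IDH1, with IDH1 the higher gene in 1 library (log2 ratio of IDH1 to IDH3G -0.11 ± 0.11, SD, exact sign-flip permutation p = 0.25, adjusted p = 0.25). For each other pair the two-sided exact permutation p was 0.13, the smallest that 4 libraries allow, and again 0.13 after Benjamini-Hochberg adjustment over the 28 pairs, so no pair can reach 0.05. Annotated exons include transcripts that the cells may not make, and with the longest transcript or the coding length in their place 21 of the 28 pairs kept their direction under all 3 lengths. GLUD1 and IDH3B stayed first and second under all 3, and IDH2 and D2HGDH stayed in the last pair of places, with D2HGDH above IDH2 by coding length (7.08 against 6.85 CPM per kilobase).

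**Figure D2:**
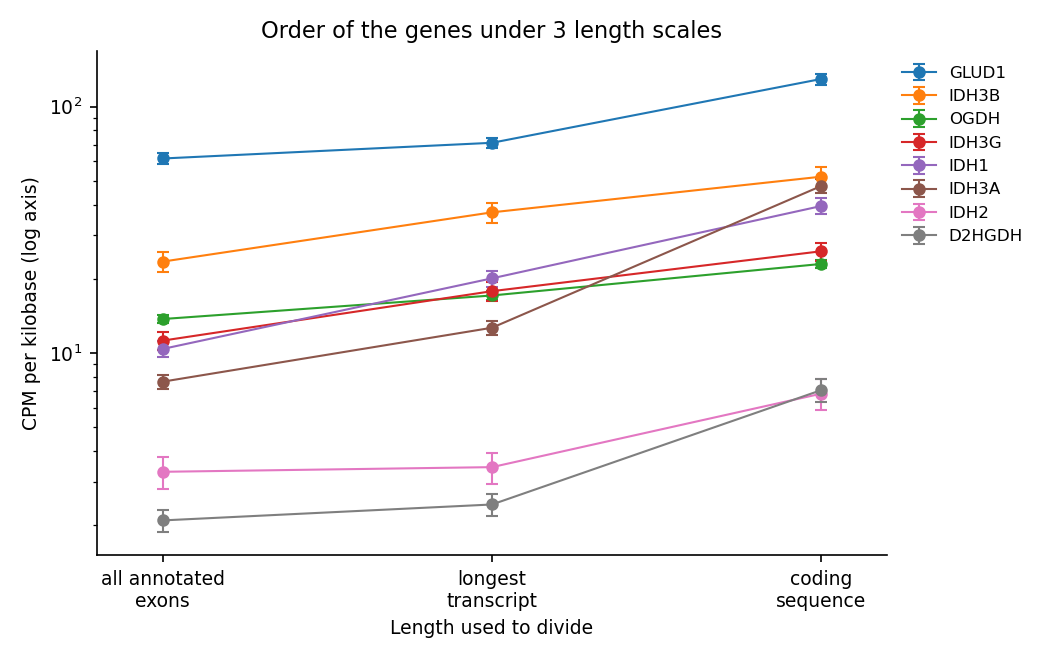
Mean level ± SD over 4 libraries (log axis) of each gene when CPM is divided by all annotated exons, the longest annotated transcript or the coding length. GLUD1 is highest on all 3 scales (61.6, 71.3 and 129 CPM per kilobase), and IDH3A moves from the sixth place to the third.

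IDH1 was the higher of the NADP-dependent genes in every library. IDH1 (ENSG00000138413, chr2:208236227-208266074, GRCh38, reverse strand) had 2032, 2217, 2237 and 1859 counts in replicates 1 to 4, or 50.3, 52.6, 49.4 and 43.9 CPM (mean 49.1 ± 3.68, SD, n = 4). Replicate 4 was the lowest, and the upper end of its exact Poisson 95% interval, 46.0 CPM, lay below the intervals of the other 3 libraries. IDH2 (ENSG00000182054, chr15:90083045-90102504, reverse strand) had 376, 460.01, 420.55 and 322.47 expected counts, or 9.31, 10.9, 9.28 and 7.62 CPM (mean 9.28 ± 1.35). Replicate 2 was the highest and replicate 4 the lowest. Counting error was wider relative to the level for IDH2, where the interval ran from 6.80 to 8.49 CPM in replicate 4 and from 9.94 CPM upward in replicate 2. These intervals cover counting error only.

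Per kilobase of annotated exon, the log2 ratio of IDH1 to IDH2 was 1.69, 1.52, 1.66 and 1.78 in replicates 1 to 4. The mean was 1.66 ± 0.11 (SD, n = 4), a 3.17-fold higher level of IDH1, in 4 of 4 libraries (exact sign-flip permutation p = 0.13). The ratio rose to 2.54 on the log2 scale by coding length, where the lengths are 1242 bases for IDH1 and 1356 for IDH2, against 4721 and 2814 bases of annotated exon. IDH1 was higher than IDH2 on each scale.

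The start of IDH1 faces a noncoding gene, IDH1-AS1, read from the opposite strand. IDH1-AS1 had 1, 7, 7 and 1 counts (0.0923 ± 0.0787 CPM), and it shares 94 bases of annotated exon with IDH1. The 113 bases between the start of the longest-reaching principal IDH1 transcript and that of IDH1-AS1 (chr2:208255134-208255246, reverse strand), both as GENCODE release 29 places them, are shown with letters from the RefSeq promoter table (GRCh38.p14). That table's own starts differ, with IDH1 at 208254458 and 208255071 and IDH1-AS1 at 208255233, the last inside the interval. The capitals mark GGGCGG on either strand, the core of the GC box that SP1 family factors can bind.
IDH1 start interval: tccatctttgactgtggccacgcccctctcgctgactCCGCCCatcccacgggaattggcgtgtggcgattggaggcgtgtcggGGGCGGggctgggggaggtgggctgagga
The interval held 2 matches and had a GC content of 68.1%. GGGCGG occurs on either strand in 45.0% of the 35116 promoter windows of 300 bases in that table, so its presence is common. IDH2 likewise faces a noncoding gene 145 bases away, IDH2-DT, and that row held 0 counts throughout, a result compatible with at most 0.0176 CPM in the pooled libraries (3 counts).

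The subunits of the NAD-dependent enzyme were expressed at unequal transcript levels. The protein is built from IDH3A, its catalytic subunit, with IDH3B and IDH3G, which have structural and regulatory roles. IDH3A (ENSG00000166411, chr15:78131498-78171949, forward strand) had 53.7, 55.7, 52.0 and 47.9 CPM (mean 52.3 ± 3.31, SD, n = 4). It was lowest in replicate 4, as were IDH1 and IDH2. IDH3B (ENSG00000101365, chr20:2658395-2664219, reverse strand) had 55.1, 66.2, 64.3 and 55.7 CPM (mean 60.3 ± 5.73). Here replicates 2 and 3 stood above replicates 1 and 4, with no overlap of their Poisson intervals, which ended at 58.0 CPM for replicate 4 and began at 62.0 CPM for replicate 3. IDH3G (ENSG00000067829, chrX:153785766-153794523, reverse strand) had 28.2, 34.1, 30.7 and 29.1 CPM (mean 30.5 ± 2.59), again highest in replicate 2.

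IDH3B stood above IDH3G per kilobase on every length scale. The log2 ratio of IDH3B to IDH3G was 1.06 ± 0.06 (SD, n = 4) by annotated exons and 1.0 by coding length, in 4 of 4 libraries (exact sign-flip permutation p = 0.13). The place of IDH3A depended on the length used. Its log2 ratio to IDH3B was -1.62 ± 0.12 by annotated exons and -0.12 by coding length, and to IDH3G it was -0.55 ± 0.10 by annotated exons but 0.88 by coding length. IDH3A has 6832 bases of annotated exon for 1098 of coding sequence, which sets this change. IDH3B and IDH3G have 2567 and 2717 bases of annotated exon. The exons of IDH3A also share 2608 bases with ACSBG1, a gene on the opposite strand with 9.03 to 13.38 expected counts per library. The other overlapping genes, CIB2 and AC090260.1, had 1 and 2 counts in replicate 1 and 0 in the rest.

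Summed per kilobase of annotated exon, IDH3A, IDH3B and IDH3G held 75.6% ± 1.16 (SD, n = 4) of the level of the 5 isocitrate dehydrogenase genes. IDH3B alone held 41.9% ± 1.42, IDH3G 20.03% ± 0.67, IDH1 18.6% ± 0.87, IDH3A 13.7% ± 0.68 and IDH2 5.86% ± 0.47. By coding length IDH3A held 27.7% ± 1.01, IDH3B 30.2% ± 1.38, IDH1 23.0% ± 0.78, IDH3G 15.1% ± 0.63 and IDH2 3.97% ± 0.31, and the 3 IDH3 genes together 73.0% ± 0.93. The share of IDH3A thus depended on the length used. By annotated exons, the share of IDH1 was 19.9% in replicate 1 and 18.1% in each of the other 3. A share of transcripts over different subunits is not a share of enzyme.

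**Figure D3:**
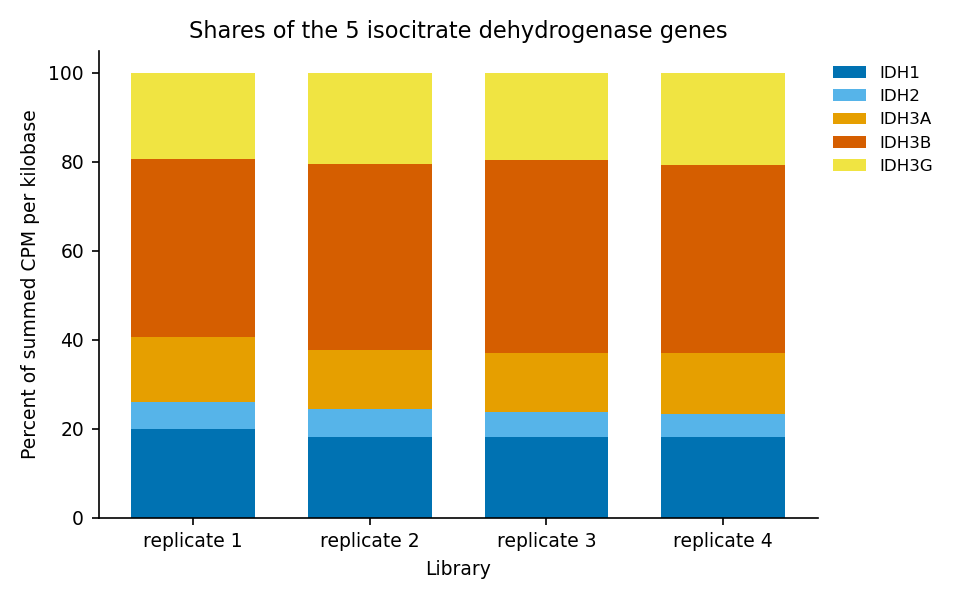
Percent of the summed CPM per kilobase of annotated exon taken by each of the 5 isocitrate dehydrogenase genes, with a bar per library. The 3 IDH3 genes together take 74.0% to 76.6% in each library and IDH2 at most 6.31%.

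IDH3G shares its start region with SSR4, which encodes a subunit of the translocon-associated complex of the endoplasmic reticulum and is read from the opposite strand. In the RefSeq promoter table the IDH3G start lies at base 153794375 and the nearer SSR4 start at base 153794449 of chromosome X. SSR4 had 1284, 1554, 1526 and 1311 counts beside 1140, 1436, 1392 and 1229 for IDH3G. In CPM both were highest in replicate 2, while SSR4 was lowest in replicate 4 (31.0 CPM, against 31.8 in replicate 1) and IDH3G in replicate 1. The ratio of the counts was 1.13, 1.08, 1.10 and 1.07 (mean 1.09 ± 0.03, SD, n = 4). The pair shares 278 bases of annotated exon on opposite strands, and whether counting used strand is not given in the sources used here. Both rows held whole counts in all 4 libraries, so the values show no reads split between them. How reads from the shared bases were assigned was not tested.

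D2HGDH, the mitochondrial enzyme that clears D-2-hydroxyglutarate, was among the lowest of the 8 genes and moved differently between libraries. D2HGDH (ENSG00000180902, chr2:241734579-241768816, forward strand) had 389, 445.41, 541 and 511.51 expected counts, or 9.63, 10.6, 11.9 and 12.1 CPM (mean 11.1 ± 1.17, SD, n = 4). It was the only gene of the 8 with its highest value in replicate 4. A pair of noncoding genes on the opposite strand overlap exons of D2HGDH, and AC114730.1 had 0, 0, 0 and 8.25 and AC114730.2 had 0, 2.59, 0 and 9.23 expected counts, both highest in replicate 4 as well. The D2HGDH value was whole in replicates 1 and 3, where both rows were at 0, and not whole in replicates 2 and 4. Some counts of these rows may therefore be reads shared with D2HGDH rather than separate ones. Their part in the D2HGDH values was not tested. ADHFE1, a transhydrogenase that can form D-2-hydroxyglutarate, had 14, 23, 12 and 11 counts (0.354 ± 0.134 CPM) and was the only gene of its list of 5 below 1 CPM in any library. Per kilobase of annotated exon D2HGDH was 20.9-fold higher than ADHFE1 (log2 ratio 4.38 ± 0.61), in 4 of 4 libraries.

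OGDH was the steadiest of the 8 genes. OGDH (ENSG00000105953, chr7:44606572-44709066, forward strand) had 70.5, 71.4, 75.5 and 69.1 CPM (mean 71.6 ± 2.74, SD, n = 4). Replicate 3 was the highest, and its Poisson interval, from 73.0 CPM, overlapped those of replicates 1 and 2 but not that of replicate 4, which ended at 71.6 CPM. Among its partners, the succinyltransferase DLST had 110.2 ± 4.43 CPM and the dihydrolipoyl dehydrogenase DLD, which other complexes share, 88.8 ± 5.32 CPM. Per kilobase of annotated exon OGDH was 1.76-fold lower than DLST (log2 ratio -0.82 ± 0.03) and 1.22-fold lower than DLD (-0.28 ± 0.11), in 4 of 4 libraries each. By coding length these gaps were 3.52-fold and 2.53-fold. The paralogs of OGDH were lower: DHTKD1, which acts on 2-oxoadipate, had 17.1 ± 0.74 CPM and OGDHL 1.89 ± 0.22 CPM. OGDH exceeded DHTKD1 4.25-fold per kilobase of annotated exon and 3.71-fold by coding length.

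GLUD1 was the highest of the 8 genes on every scale. GLUD1 (ENSG00000148672, chr10:87050486-87094866, reverse strand) had 222, 229, 212 and 204 CPM (mean 217 ± 10.9, SD, n = 4). Replicate 4 was lowest, and replicate 2 was highest except with scaling by total counts, where replicate 1 was. GLUD2, an intronless copy of GLUD1 on the X chromosome, had 2.03, 3.07, 5.1 and 0 expected counts against 8628 to 9641 for GLUD1. Of the 5 pseudogene rows named after GLUD1, GLUD1P3 had 17 to 32 counts, GLUD1P7 had 1 count in replicate 3 only and the other 3 had 0. Of the 150-base windows of the GLUD1 transcript, 18.1% occurred also in another gene, 317 windows in SHLD2 on the opposite strand and 226 in GLUD2. SHLD2, listed as FAM35A, had 62.4 ± 4.22 CPM and shares 464 bases of annotated exon with GLUD1.

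In all, 10 such ratios to genes of neighbouring steps were tested with the exact sign-flip permutation test. Each gave p = 0.13, also after Benjamini-Hochberg adjustment over the 10 by this exact test. The ratios of IDH1 to ACO1 and of GLUD1 to the aspartate transaminase GOT2 changed direction with the length scale, so no order is given for them.

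All 8 genes varied between libraries by more than counting error, and each did so modestly. The test was a chi-square test of homogeneity over every gene whose mean count reached 10, and 59.3% of 16790 genes were called at a Benjamini-Hochberg adjusted p under 0.05. Where the mean count was at least 100 the share was 71.8%, and the lowest of the 8 had a mean of 394.8, so their 8 of 8 stands beside a background in which most genes varied. The adjusted p ran from 3.7e-14 for GLUD1 and 7.0e-14 for IDH3B to 0.0031 for D2HGDH and 0.0066 for OGDH. None of the 8 reached a range of 1.5 times between its lowest and highest library, and 12.0% of all genes tested varied with such a range. That share takes in genes with mean counts down to 10 and is not matched to the higher counts of the 8. IDH2 had the widest range, 1.43 times, followed by D2HGDH at 1.26 times, and OGDH had the narrowest at 1.09 times.

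The SD of log2 CPM was 0.21 for IDH2, 0.16 for D2HGDH, 0.14 for IDH3B, 0.12 for IDH3G, 0.11 for IDH1, 0.09 for IDH3A, 0.07 for GLUD1 and 0.05 for OGDH. Among the 12983 detected genes the median was 0.11, and 87.5% had a smaller SD than IDH2 but 13.2% a smaller one than OGDH. Replicate 2 was the highest library for 6 of the 8 genes, the 5 isocitrate dehydrogenase genes and GLUD1, but with scaling by total counts for only 3, since IDH1, IDH3A and GLUD1 were then highest in replicate 1. Replicate 4 was the lowest for 5 genes (4 by total counts) and replicate 1 for 3. Replicate 2 also had the lowest share of counts in protein-coding genes, 87.8% against 89.1% to 91.2% in the others, and its part in these differences was not tested. Without replicate 4 the calls of IDH1 (adjusted p = 0.16) and IDH3A (0.11) were lost, without replicate 2 that of IDH3G (0.11), without replicate 1 that of D2HGDH (0.12) and without replicate 3 that of OGDH (0.19). IDH2, IDH3B and GLUD1 kept theirs in each case, but IDH2 only just without replicate 4 (chi-square adjusted p = 0.04996).

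**Figure D4:**
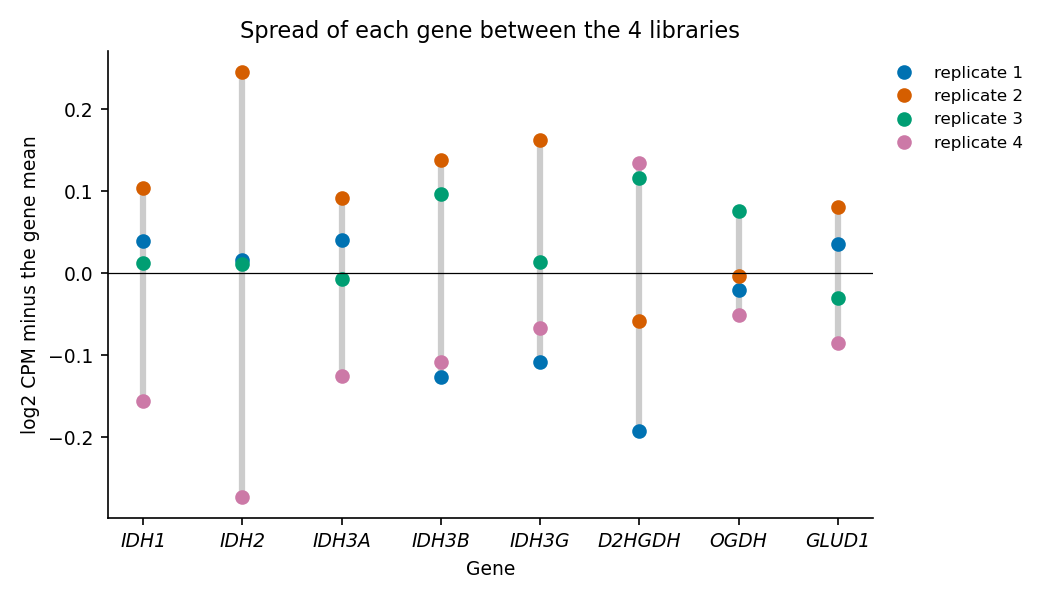
Deviation of log2 CPM from the mean of each gene, with a point per library and a grey bar for the range. IDH2 spans the widest range (SD 0.21) and OGDH the narrowest (SD 0.05), and D2HGDH alone has its highest value in replicate 4.

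The genes whose pattern over the 4 libraries was nearest to that of IDH1 were LIX1L, PMPCB and GEM. The measure was the root mean square difference of log2 CPM after subtracting the mean of each gene, over 9213 protein-coding genes whose mean reached 10 CPM. It was 0.0062, 0.0073 and 0.0087. For IDH2 the nearest were NDUFB6 (0.016), a complex I subunit, GTF2A2 (0.020), a general transcription factor subunit, and JTB (0.021). With 4 libraries and so many candidates, this is a description only.

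The surrounding pathway was expressed almost in full. All 18 other TCA cycle and pyruvate entry genes were detected, with a median of 18.1 CPM per kilobase of annotated exon, and 17 of 18 varied, beside 71.8% of all genes with a mean count of at least 100. MDH2, the mitochondrial malate dehydrogenase, was highest at 61.8 CPM per kilobase, close to GLUD1, followed by the succinate dehydrogenase subunit SDHD (36.0) and fumarase, FH (33.8). Pyruvate carboxylase, PC, was lowest at 2.22 and was the gene that did not pass the test (adjusted p = 0.11). ACO1, the cytosolic aconitase, which makes isocitrate, had 134.7 ± 3.22 CPM (SD, n = 4).

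Of the 5 partners and paralogs of OGDH all were detected and 3 varied, beside 59.3% of all genes tested. Of the 5 other genes linked to 2-hydroxyglutarate 4 were detected, 5 were tested and 4 varied, beside the same 59.3%. They were led per kilobase by LDHA (171), PHGDH (33.2) and the citrate carrier SLC25A1 (18.1). LDHA and PHGDH are dehydrogenases known to make 2-hydroxyglutarate as a side product. Of the 14 genes that move carbon or nitrogen between glutamate, glutamine and 2-oxoglutarate 11 were detected, and all 11 varied. This stands beside 71.8% of all genes with a mean count of at least 100, a minimum that these 11 exceed. PSAT1, a transaminase of serine synthesis that yields 2-oxoglutarate, was highest at 253.8 CPM per kilobase, followed by the glutamine carrier SLC1A5 (114) and the branched-chain transaminase BCAT1 (48.4). GLUD2, the alanine transaminase GPT (0.207 ± 0.12 CPM) and the glutaminase GLS2 (0.0311 ± 0.048 CPM) were below 1 CPM.

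**Figure D5:**
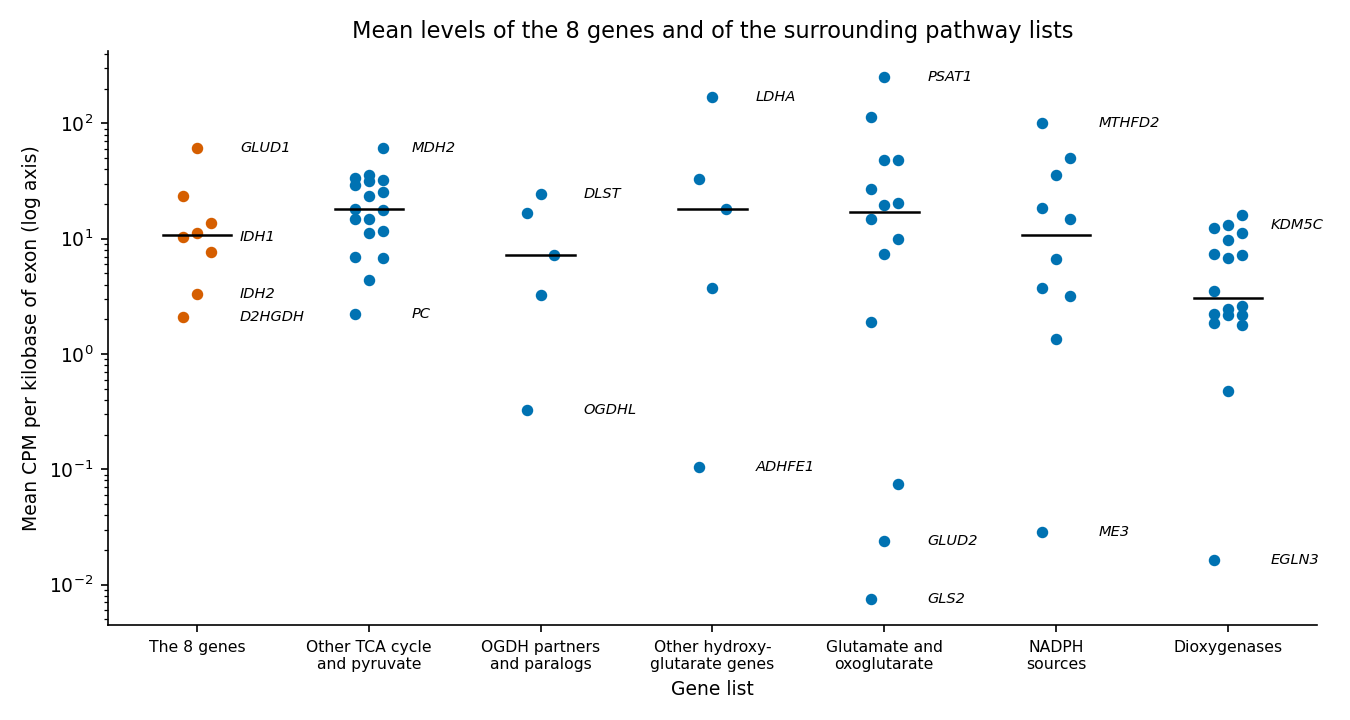
Mean level over 4 libraries in CPM per kilobase of annotated exon (log axis) for each gene of 7 lists, with a line at the median of each list and selected genes named. IDH2 (3.30) and D2HGDH (2.10) lie near the lower end of the TCA cycle list, where PC is lowest at 2.22, and the paralogs and transaminases that were not detected lie below 1.

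Promoter windows were found in the RefSeq table for 7 of the 8 genes, with OGDH not among them, in 8 windows of 300 bases. A match to GCGC, any base and TGCGC in succession, the core of the NRF1 motif, lay in 4 of these windows on either strand, against 5.78% of all 35116 windows. NRF1 is a factor known for its role at genes of mitochondrial function. These 4 windows were the most CpG-rich of the 8, with 30 to 47 CpG dinucleotides against 6 to 20 in the others. The motif itself holds CpG dinucleotides, and the 5.78% was not matched for CpG content. The 4 matches are shown in capitals with 10 bases on each side, 5′ to 3′ on the strand of the gene (GRCh38.p14).
D2HGDH: agccgtcaatGCGCAGGCGCggcgtcgccc
GLUD1: gagcccgcccGCGCCTGCGCgcccccgacg
IDH3A: cgtggggtggGCGCTTGCGCactgccgctg
IDH3G: gtgcgaccgcGCGCGTGCGCagtaccgggt
They lie at chr2:241734595-241734624, chr10:87095032-87095061, chr15:78149342-78149371 and chrX:153794418-153794447. The matches begin 25, 208, 10 and 62 bases before the listed start of D2HGDH, GLUD1, IDH3A and IDH3G. The 4 genes include both the lowest and the highest of the 8 per kilobase of annotated exon, D2HGDH at 2.10 CPM and GLUD1 at 61.6. No window of the 8 held TATAAA on either strand, and 11.5% of all windows did. The table's starts for IDH1, IDH2 and IDH3A lie well inside the genes as GENCODE release 29 bounds them. The IDH2 window, with its start at 90100621, had 6 CpG dinucleotides, against 17 to 47 in the other 7 windows and a median of 14 over all windows. A match is only a description of these letters.

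The expected counts of some of these genes depended on how reads were shared. Values were not whole in all 4 libraries for IDH3A, OGDH and GLUD1, in 3 for IDH2 and in 2 for D2HGDH, and were whole throughout for IDH1, IDH3B and IDH3G. Of the 150-base windows of a principal transcript, 61.9% for IDH3A, 18.1% for GLUD1, 9.81% for IDH3G and 8.83% for D2HGDH occurred in a transcript of another gene on either strand, and 0 did for IDH1, IDH2, IDH3B and OGDH. The shared windows of IDH3A were those of ACSBG1, which had 9.03 to 13.38 expected counts against 2025 to 2354 for IDH3A. SHLD2 had 2574.5 to 2739.1 against 8628 to 9641 for GLUD1. Values of OGDH and IDH2 were not whole although 0 of their windows recurred. The share of windows therefore does not rank how certain the levels are, and the part of each count that was shared was not tested.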

How the data were processed

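Per the labels' protocols, total RNA was extracted from frozen HT1080 pellets, ribosomal RNA was depleted and read pairs were sequenced. Trimmomatic 0.39, RSEM 1.3.3, Bowtie2 2.5.4, DESeq2 1.46.0 and build GRCh38 are named, per the submitters' processing notes. No source used here gives their roles, the annotation or the strand setting. Expected counts were deposited per Ensembl gene, 1 column per library, read as such from the values (10.6% to 11.9% not whole, unequal totals).

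CPM used TMM effective library sizes (edgeR 4.0.16, factors 1.02, 0.964, 0.989 and 1.03). Positions and lengths came from GENCODE release 29, which held 94.0% of the gene IDs. Coding length is the longest coding sequence there. Counts were rounded for the chi-square test (3 degrees of freedom, mean of 10 or more counts, Benjamini-Hochberg). Detected means 1 CPM or more in all 4 libraries. Each of the 6 pairs of libraries differed beyond sampling noise (4173 to 7724 genes). The test was tested on simulated data of 16785 genes with 50 genes per fold size changed in 1 library. Of the genes changed 1.2-fold it called 68%, as for 1.5-fold, rising to 92% for 2-fold changes and 100% for 4-fold ones. Among 16585 unchanged genes it called 6. The simulated counts had Poisson noise only, the assumption of the test itself, so few such calls were built in. The check does not cover the extra variation between real libraries.

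The genes named were the 8, HDAC8, in each list the 3 highest per kilobase, members under 1 CPM, partners and paralogs, pseudogenes, overlapping genes, and the 3 most like IDH1 and IDH2. Beyond this rule NNT, PC and GOT2 were named after their values were seen. Some results are not reported here. Members and lists were chosen with earlier results of these data known. Alternatives were other scalings, count minimums, length scales and leaving out each library. The shares of all 5 isocitrate dehydrogenase genes by other lengths, and the highest and lowest library under other scalings, were added after seeing the data.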

Additional observations from a re-analysis of the deposited data

Results flagged for a closer look

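The share of IDH1 in the summed level per kilobase of the 5 isocitrate dehydrogenase genes stood apart in replicate 1, at 19.9% against 18.1% in each of the other 3 libraries. Its gap to the nearest library was 0.985 of the whole range, above the critical value of 0.83 for 4 samples. IDH3B, the gene with the largest share, was lowest in replicate 1 (40.0%). Of 41 levels, ratios and shares examined this was the only one past that value, and chance gives about 1 in 20.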

How the results depend on the processing

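The 3 other scalings (DESeq2 1.42.0 size factors, total counts and TMM over protein-coding genes) and the omission of each library moved no level of the 8 genes in CPM by as much as its SD (56 of 56 values), and the other scalings and count minimums changed no call of the 8. Of 72 repeated calls 67 were kept, and the 5 lost each came from leaving out 1 library. Over all genes, 7788 to 9375 genes varied when 1 library was left out, against 9954. The length scale mattered more. With the longest transcript, coding length and no length, the log2 ratio of IDH1 to IDH2 was 2.55, 2.54 and 2.41, and the share of IDH1 was 22.0%, 23.0% and 24.4%. With coding length and no length, IDH3A to IDH3B was -0.12 and -0.20, IDH3B to IDH3G 1.0 and 0.98, and IDH3A to IDH3G turned to 0.88 and 0.78, which follows from the lengths. No paired analysis was possible because the series holds 1 group. Depth limits IDH2 and D2HGDH most.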

Other observations

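Other genes listed here as possible sources of NADPH, the cofactor that IDH1 and IDH2 make, were mostly expressed above IDH2. The list does not say which cofactor each enzyme mainly uses. Of 10 such genes 9 were detected and 8 varied, beside 71.8% of all genes with a mean count of at least 100, with a median of 10.7 CPM per kilobase of annotated exon. The mitochondrial folate enzyme MTHFD2 was highest at 102, followed by the pentose phosphate enzyme PGD (49.8). The mitochondrial transhydrogenase NNT had 3.75 CPM per kilobase, near IDH2 at 3.30, and did not vary beyond the test (adjusted p = 0.67). The malic enzyme ME3 was at 0.11 ± 0.06 CPM.

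Of 18 dioxygenases that use 2-oxoglutarate, a group that 2-hydroxyglutarate can inhibit, 17 were detected and 13 varied, a share near that 71.8%. Their median was 3.08 CPM per kilobase of annotated exon, and the collagen prolyl hydroxylase P4HA1 (16.1), the histone demethylase KDM5C (13.1) and KDM4A (12.4) were highest. EGLN3, an oxygen-sensing prolyl hydroxylase, was the only gene of that list below 1 CPM, at 0.121 ± 0.0848 CPM.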
